A study of Mus musculus with 8 samples.

Results

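The potassium channel genes described here are the 76 genes of the authors' table whose symbol begins with Kcn, followed by letters and a digit, of 48709 gene identifiers counted. They comprise 72 protein-coding genes and 4 antisense RNAs. Of the 76, 57 had at least 10 reads in 4 or more of the 8 libraries and were tested, and 19 stayed below that minimum. Expression was measured by RNA-seq of utricles, the balance organs of the inner ear that sense gravity, from C57BL/6 mouse embryos at E15.5 (embryonic days). There were 4 libraries labelled Rest(+/deltaExon4), heterozygotes in which 1 allele of Rest lacks exon 4 (their titles read KO), and 4 labelled wild-type. The strain and age labels of wild-type replicate 4 read C57BL/7 and E15.6 and were taken as given. Each library pooled RNA of 7 to 9 mice from whole dissected utricles, so levels are averages over hair cells, supporting cells, nerve endings and other cells, and fewer cells of a type cannot be told apart from less RNA per cell.

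Potassium channels set the resting potential and the speed of the voltage response of excitable cells. Voltage-gated (Kv) channels are built of pore-forming subunits. Inward rectifiers and two-pore channels pass current near rest, and calcium-activated channels couple the potential to calcium entry. Auxiliary subunits tune the gating of the pore. In the utricle potassium also carries the transduction current, because the fluid above the hair bundles is rich in it, and dark cells secrete it. The repressor REST binds a sequence named RE1 and keeps neuronal genes silent, many ion channel genes among them. Inclusion of exon 4 gives a truncated form of the protein, and the comparison asks what the loss of that exon does to expression.

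Rest (chromosome 5, 77265491 to 77286432, GRCm38) was at 127 ± 3.20 CPM (reads of a gene for every 1000000 reads on genes, with library sizes scaled by TMM factors) in the heterozygotes and 116 ± 7.35 CPM in the wild type (SD, n = 4 each, edgeR adjusted p = 0.457). Gene counts do not show exon use, so this checks neither the deletion nor the labels. Libraries held 20.4 to 24.6 M read pairs on genes. Read pairs outside genes were 11.9% to 18.3% in heterozygotes and 18.4% to 22.2% in wild type, and genes with a read were 23393 to 23983 and 24256 to 24675 (exact two-sided permutation p = 0.0286 for each, the smallest that 4 against 4 libraries can give). The part of these differences in the results below was not tested. Markers of cell types were looked at, which does not tell the utricle from other organs that hold the same cell types. All 12 hair cell and all 8 supporting cell markers were detected. Hair cell markers summed to 749 to 899 CPM in heterozygotes and 866 to 987 CPM in wild type, and supporting cell markers to 1319 to 1469 and 1233 to 1590 CPM. Wild-type replicate 4 stood apart in erythroid markers, which summed to 6248 CPM there and to 490 to 761 CPM in the other 7 libraries. Skeletal muscle markers summed to 50.8 to 60.2 CPM in heterozygotes and 34.1 to 44.8 CPM in wild type. Of the 4 tested, Myog alone passed (edgeR, adjusted p = 0.00313), with a mean of 23.1 CPM in heterozygotes against 7.57 in wild type. Myh3 was higher without passing, with means of 9.51 against 6.20 CPM. Actc1 and Tnnt1 differed little, with means of 16.8 against 17.6 CPM for Actc1 and 6.22 against 5.55 CPM for Tnnt1. A difference in muscle content was not tested.

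Over the family, 3 genes fell in the heterozygotes and none rose: Kcna10, Kcnh6 and Kcnh7. Among all 17066 genes tested, 1.15% were called in either direction, 1.0% as lower and 0.146% as higher (edgeR quasi-likelihood test, Benjamini-Hochberg adjusted p under 0.05). The 3 calls are 5.26% of the 57 tested members. The median log2 change of the 57 members was -0.11, against -0.0029 over all genes, and 34 members had a negative and 23 a positive value. For 10 members the libraries of the groups did not overlap, 8 of them lower and 2 higher, while 7.86% of all genes did not overlap (4.88% lower and 2.98% higher). An unadjusted p under 0.05 was found for 11 members (19.3%) and for 13.3% of all genes.

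The sequences before the start sites of these 3 genes are shown because RE1 is the element that REST binds. RefSeq promoter windows (GRCm38.p6, 250 bases before to 50 after a start) were matched by symbol for 53 of the 76 members, in 77 windows. Below are the bases before the start that also lie outside the annotated gene, 5′ to 3′ on the strand of the gene, with matches to the left part of the RE1 consensus (TTCAGCACC) or to the core of its right part (GGACAG) in capitals, on either strand.
Kcna10, chr3:107182893-107183055, plus strand: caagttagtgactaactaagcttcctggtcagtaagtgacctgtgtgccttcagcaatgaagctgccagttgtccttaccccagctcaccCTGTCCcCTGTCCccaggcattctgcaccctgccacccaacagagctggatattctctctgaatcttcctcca
Kcnh6, chr11:106007898-106008123, plus strand: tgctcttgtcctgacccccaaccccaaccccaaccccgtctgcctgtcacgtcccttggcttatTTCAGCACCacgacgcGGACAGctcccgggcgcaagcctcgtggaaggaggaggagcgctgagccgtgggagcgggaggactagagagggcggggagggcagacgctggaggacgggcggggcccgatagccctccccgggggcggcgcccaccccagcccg
Kcnh7, chr2:63184288-63184537, minus strand: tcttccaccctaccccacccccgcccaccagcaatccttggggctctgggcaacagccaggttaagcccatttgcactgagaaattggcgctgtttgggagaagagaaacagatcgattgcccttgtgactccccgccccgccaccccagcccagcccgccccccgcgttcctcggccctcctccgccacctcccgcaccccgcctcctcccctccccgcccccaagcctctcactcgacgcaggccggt

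The Kcnh6 window holds the whole left part of the consensus, which 0.371% of all 32851 promoter windows hold on either strand and no other member's window does. It is followed on the same strand by the right core, so that the stretch from 186 bases before the start reads as below (chr11:106007962-106007983, plus strand, both parts in capitals).
Kcnh6: TTCAGCACCacgacgcGGACAG
There are 7 bases between the parts here, where the consensus has 2. Both parts in this order, with at most 20 bases between them, were found in 13 of all windows: 4 with 2 bases between and 2, Kcnh6 and Grm2, with 7. This search by spacing was added after the Kcnh6 window had been seen. Kcna10 holds the right core alone, at 2 neighbouring places on the opposite strand, and 22.2% of all windows hold that core. The Kcnh7 window holds none of these letters. With at most 4 of the 19 fixed letters of the full RE1 consensus differing, 1 member window matched, that of Kcna3, against 0.228% of all windows; Kcna3 was too low to be tested. At their best places the windows of Kcnh6, Kcna10 and Kcnh7 differed from the full consensus in 7, 8 and 9 of the 19 fixed letters. A match describes letters only, and the windows leave out introns and distant sites.

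Kcna10, a Kv1 subunit that carries large potassium currents of vestibular hair cells, had the largest change of the 57 tested members. It was at 1.37, 1.24, 1.34 and 2.17 CPM in heterozygote replicates 1 to 4 and at 15.9, 12.0, 8.13 and 13.4 CPM in wild-type replicates 1 to 4. Every heterozygote library lay below every wild-type library, and wild-type replicate 3 was the lowest of its group. The counts behind these values were 26 to 53 reads in heterozygotes and 201 to 374 in wild type. The heterozygote mean was 12.4% of the wild-type mean, a log2 change of -3.00 ± 0.26 (SE, edgeR adjusted p = 0.00019). It stayed called in each of the 8 fits without 1 library, at -3.22 to -2.85. Per kilobase of exon its rank was 3 of the 55 tested protein-coding members in wild type, at 5.70 ± 1.5 CPM per kb (SD, n = 4), and 25 in heterozygotes, at 0.706 ± 0.198 CPM per kb.

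Kcna10 lies on chromosome 3 (107183056 to 107195721, GRCm38) beside its relatives Kcna2, 68.1 kb away, and Kcna3, 145 kb away. Distances were taken between members only, and the changes of other genes near Kcna10 were not examined. Kcna2, a Kv1 subunit of axons, was at 3.79 ± 1.13 CPM in heterozygotes and 4.98 ± 1.31 CPM in wild type (SD, n = 4 each, adjusted p = 0.544). Kcna3 had at most 11 reads in any library. Of the other tested Kv1 genes, Kcna4, Kcna5 and Kcna6, none passed, and log2 changes lay between -0.08 and 0.19.

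**Figure D1:**
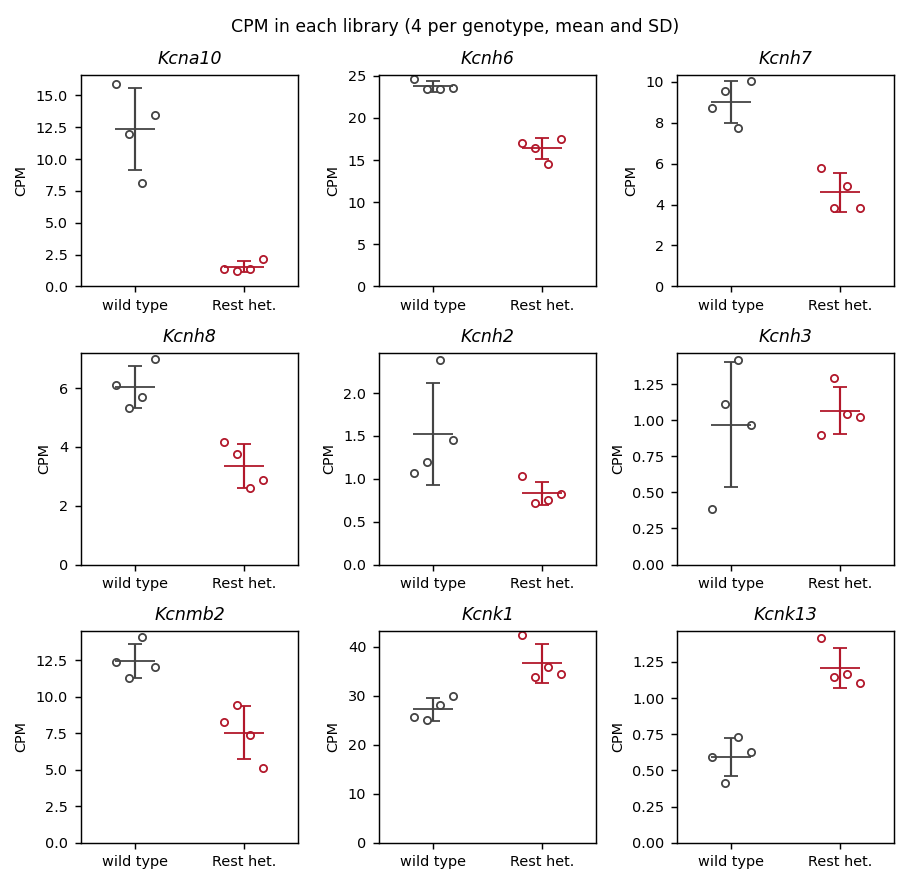
CPM of 9 potassium channel genes in each library, with wild type in grey and Rest heterozygotes (Rest het.) in red; open circles are libraries, wide bars the mean and whiskers the SD of 4 libraries. Kcna10, Kcnh6, Kcnh7, Kcnh8, Kcnh2 and Kcnmb2 do not overlap and are lower in heterozygotes, Kcnk1 and Kcnk13 do not overlap and are higher, and Kcnh3 overlaps; of the 9, only Kcna10, Kcnh6 and Kcnh7 passed the test.

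The ether-a-go-go class of Kv channels had 2 of its 5 tested members lower and none higher. These 5 are the erg genes Kcnh2, Kcnh6 and Kcnh7 and the elk genes Kcnh3 and Kcnh8. They are the only Kcnh genes of the authors' table, and Kcnh genes outside that table were not examined. The median log2 change was -0.85, and in 4 of 5 genes the groups did not overlap. The class is singled out here after its values were seen. Kcnh6 was at 17.1, 16.5, 14.6 and 17.5 CPM in heterozygote replicates 1 to 4 and at 24.7, 23.4, 23.4 and 23.5 CPM in wild-type replicates 1 to 4. The wild-type libraries lay close together and all above the heterozygotes. The log2 change was -0.53 ± 0.10 (SE, edgeR adjusted p = 0.0228). Per kilobase of exon Kcnh6 was second in both genotypes, at 6.69 ± 0.171 CPM per kb in wild type and 4.62 ± 0.362 in heterozygotes (SD, n = 4 each).

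Kcnh7 was at 5.79, 3.82, 4.93 and 3.85 CPM in heterozygote replicates 1 to 4 and at 8.72, 9.56, 7.72 and 10.04 CPM in wild-type replicates 1 to 4. The groups did not overlap, and the heterozygote mean was 51.0% of the wild-type mean. The log2 change was -0.97 ± 0.18 (SE, edgeR adjusted p = 0.0241). Kcnh7 (chromosome 2, 62693414 to 63184287, GRCm38) shares 696 of its 15226 exon bases with Gca on the other strand, and reads there cannot be assigned by strand. Gca itself was at 7.12 ± 0.473 and 7.70 ± 0.426 CPM (SD, n = 4 each, adjusted p = 0.746).

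The calls of Kcnh6 and Kcnh7 were each lost in 6 of the 8 fits without 1 library. For Kcnh6 the adjusted p rose to 0.0606 and 0.0645 when heterozygote replicate 2 or 3 was left out. Leaving out wild-type replicate 1, 2, 3 or 4 gave 0.0792, 0.0646, 0.0688 or 0.0633. For Kcnh7 it was 0.0665, 0.0625 or 0.0679 when heterozygote replicate 2, 3 or 4 was left out. Leaving out wild-type replicate 1, 2 or 4 gave 0.0726, 0.087 or 0.0862. The size of the change moved little, between -0.57 and -0.48 for Kcnh6 and between -1.10 and -0.89 for Kcnh7.

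**Figure D2:**
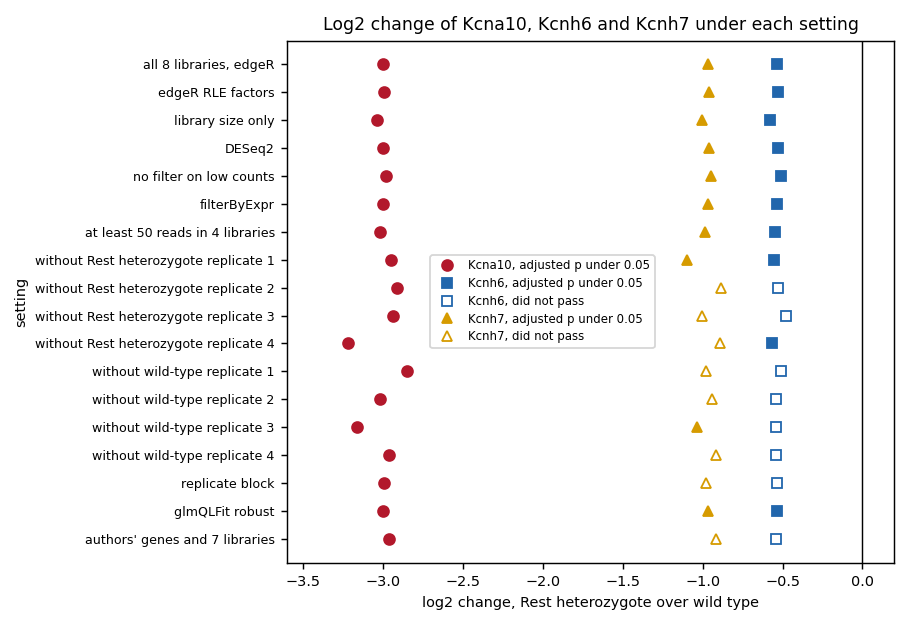
Log2 change (Rest heterozygote over wild type) of Kcna10, Kcnh6 and Kcnh7 with all libraries and under each of 17 other settings; filled symbols have an adjusted p under 0.05 and open ones do not. Kcna10 is filled throughout, while Kcnh6 and Kcnh7 turn open in most fits without 1 library at nearly the same log2 change.

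The other genes of the class did not pass. Kcnh8 was at 4.16, 3.78, 2.59 and 2.86 CPM in heterozygote replicates 1 to 4 and 6.12, 5.31, 5.70 and 6.98 CPM in wild-type replicates 1 to 4, without overlap (log2 -0.85 ± 0.20, SE, adjusted p = 0.0829). Kcnh2, the erg gene of the heart, was at 1.03, 0.717, 0.751 and 0.818 CPM against 1.06, 1.2, 2.39 and 1.45 CPM (-0.88 ± 0.33, adjusted p = 0.303). Its groups were separated by a narrow gap, and wild-type replicate 3 was the highest. Kcnh3 overlapped, at 0.900 to 1.29 CPM in heterozygotes and 0.383 to 1.42 CPM in wild type (adjusted p = 0.912).

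No other voltage-gated subunit passed. Among the 7 tested genes of the Kv2 to Kv4 class, 4 changes were negative and 3 positive. The silent subunits, which act only together with other Kv subunits, had 3 of 7 members tested and none called. Of these Kcns3 was at 5.62 ± 0.408 and 6.35 ± 1.64 CPM (SD, n = 4 each, adjusted p = 0.746).

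Of the 3 tested Kv7 genes none passed either. Kcnq1 forms with Kcne1 the channel through which dark cells secrete potassium. Kcnq1 was at 4.40 ± 0.618 and 3.91 ± 0.635 CPM and Kcne1 at 9.67 ± 2.33 and 12.0 ± 4.75 CPM in heterozygotes and wild type (SD, n = 4 each, adjusted p = 0.738 and 0.646). Both overlapped between the genotypes. Dark cell markers, a list that contains both genes, summed to 148 to 169 and 142 to 189 CPM. Kcnq5 stayed below the minimum, with 2 to 15 reads.

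Of the 8 genes of the class gated by calcium, sodium or pH all were tested and none passed. Kcnma1, the pore of the large-conductance calcium-activated channel, was at 1.11, 1.24, 1.92 and 1.02 CPM in heterozygote replicates 1 to 4 and 2.42, 1.99, 1.5 and 1.60 CPM in wild-type replicates 1 to 4. Only heterozygote replicate 3 reached into the wild-type range (log2 -0.50 ± 0.30, SE, adjusted p = 0.493). Its auxiliary subunit Kcnmb2 was at 8.27, 9.41, 7.39 and 5.11 CPM against 12.4, 11.3, 14.1 and 12.1 CPM, without overlap (-0.72 ± 0.18, adjusted p = 0.104). Kcnn2, the small-conductance channel that acts with nicotinic receptors at efferent synapses, was at 2.09 ± 0.101 and 1.67 ± 0.278 CPM, and Kcnn4 at 7.09 ± 1.44 and 8.36 ± 1.86 CPM (SD, n = 4 each, adjusted p = 0.581 and 0.625).

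Among channels that pass current near rest, 8 of 13 tested genes had a positive log2 change, without a call. Of the 5 tested two-pore genes 2 did not overlap and were higher in heterozygotes. Kcnk1, a weak inward rectifier of this class, was the most abundant member per kilobase of exon in both genotypes (12.2 ± 1.03 CPM per kb in wild type, SD, n = 4). It was at 42.3, 33.7, 35.8 and 34.4 CPM in heterozygote replicates 1 to 4 and 25.6, 25.0, 28.1 and 30.01 CPM in wild-type replicates 1 to 4 (log2 0.43 ± 0.10, SE, adjusted p = 0.0914). The value of heterozygote replicate 1 was the highest, and the other heterozygote libraries lay nearer to the wild type. Kcnk13, known from microglia, was at 1.41, 1.15, 1.17 and 1.10 CPM against 0.595, 0.416, 0.728 and 0.630 CPM (1.02 ± 0.30, adjusted p = 0.182). Macrophage markers summed to 50.9 to 92.8 CPM in heterozygotes and 61.4 to 86.4 CPM in wild type.

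Of the 8 tested inward rectifiers none passed, and 5 had a positive log2 change. Kcnj2, the classical strong inward rectifier, was at 20.4, 15.01, 15.57 and 13.4 CPM in heterozygote replicates 1 to 4 and 7.78, 11.6, 14.8 and 10.4 CPM in wild-type replicates 1 to 4 (log2 0.53 ± 0.20, SE, adjusted p = 0.292). Wild-type replicate 3 lay within the heterozygote range. Its neighbour on chromosome 11, Kcnj16, 38.2 kb away, was at 3.69 ± 1.66 and 4.22 ± 1.56 CPM, and Kcnj10, the glial channel with which Kcnj16 forms heteromers, at 3.14 ± 1.03 and 3.72 ± 0.641 CPM (SD, n = 4 each, adjusted p = 0.861 and 0.724). Kcnj8, a pore subunit of ATP-sensitive channels in vessel walls, was at 10.9 ± 0.986 and 9.53 ± 0.923 CPM, and Kcnj13 at 1.65 ± 0.596 and 1.40 ± 0.716 CPM (adjusted p = 0.53 and 0.849). Kcnj13 shares 623 of its 1270 exon bases with Gigyf2, a gene on the other strand at 144 and 150 CPM, so its level is uncertain.

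Auxiliary subunits had 11 of 15 members tested and none called, with log2 changes from -0.72 for Kcnmb2 to 0.34 for Kcne3. Kcnab1 and Kcnab2, beta subunit genes of Kv1 channels, had the highest wild-type CPM of the class. Kcnab1 was at 11.7 ± 2.37 and 14.6 ± 1.74 CPM and Kcnab2 at 13.5 ± 1.67 and 14.1 ± 3.08 CPM (SD, n = 4 each, adjusted p = 0.419 and 0.903). Of the antisense RNAs Kcnq1ot1, the imprinted transcript within Kcnq1, was at 123, 137, 64.2 and 89.8 CPM in heterozygote replicates 1 to 4 and 209, 149, 154 and 147 CPM in wild-type replicates 1 to 4 (log2 -0.67 ± 0.21, SE, adjusted p = 0.205). The groups did not overlap, but heterozygote libraries differed among themselves by more than the gap. Heterozygote replicates 3 and 4, the lowest, also had the lowest shares of read pairs outside genes (11.9% and 13.6%). Wild-type replicate 1, the highest, had the highest share (22.2%). A link between that share and the level of Kcnq1ot1 was not tested. Kcnq1ot1 lies wholly within Kcnq1 on the other strand, and reads there cannot be assigned by strand. Reads of unspliced Kcnq1 RNA may therefore be counted in it.

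**Figure D3:**
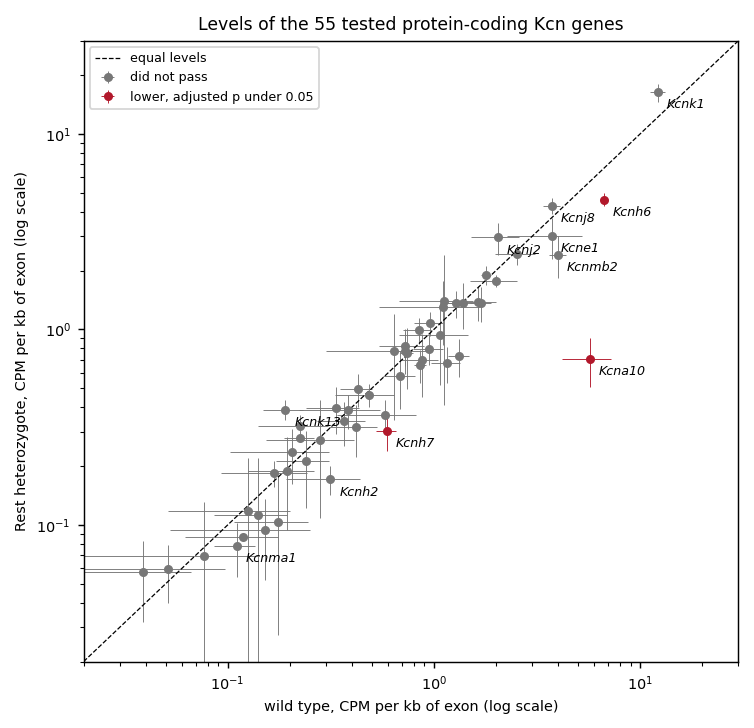
Mean level of the 55 tested protein-coding members in CPM per kilobase of exon, wild type on the x axis and Rest heterozygote on the y axis, both on log scales; bars are the SD of 4 libraries, the dashed line marks equal levels, and red marks an adjusted p under 0.05. Kcnk1, Kcnh6 and Kcna10 are the 3 highest in wild type, at 12.2, 6.69 and 5.70, and Kcna10 lies farthest below the line.

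In wild type the levels per kilobase of exon spanned a wide range, with a median of 0.687 CPM per kb and 19 of 55 protein-coding members above 1. After Kcnk1, Kcnh6 and Kcna10 came Kcnmb2, Kcne1 and Kcnj8, at 3.98 ± 0.377, 3.75 ± 1.48 and 3.74 ± 0.362 CPM per kb (SD, n = 4 each). These 3 did not differ beyond their spread. Kcnh6 and Kcna10 also overlapped within their SD. The rank of Kcnma1 was 52 of 55, at 0.111 ± 0.0248 CPM per kb. Protein-coding members summed to 239 to 254 CPM in heterozygotes and 264 to 286 CPM in wild type. The members below the minimum had at most 24 reads in any library. They include Kcna1, Kcnq5, Kcnj3, Kcnj12 and Kcnk3, for which a difference was not tested at this depth.

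Of the 12 ganglion neuron markers 3 fell and none rose. The 12 ganglion neuron markers summed to 527 to 597 CPM in heterozygotes and 685 to 967 CPM in wild type, without overlap and with none at 0 (p = 0.0286 by an exact permutation test, two-sided, at its limit). Wild-type replicate 3 had the highest sum, and it was also the highest wild-type library for 22 of the 57 tested members (38.6%, against 25.0% of all genes tested). In Prph, Tubb3 and Stmn2 that library was at 48.7, 62.0 and 42.7 CPM. The other wild-type libraries reached at most 9.23, 18.6 and 11.1 CPM, and none of these genes passed (edgeR adjusted p = 0.337, 0.538 and 0.51). Elavl4 and Ntrk3 did not pass either, with means of 16.4 and 7.70 CPM in heterozygotes and 16.0 and 8.58 CPM in wild type. Snap25, Nefm and Nefl fell. Nefm was at 254 ± 27.1 CPM in wild type and 100.4 ± 3.31 CPM in heterozygotes, and Nefl at 134 ± 24.6 and 72.4 ± 11.6 CPM (edgeR adjusted p = 1.889e-05 and 0.0116, n = 4 each, SD). Isl1 and Pou4f1 were at 147 and 30.7 CPM in heterozygotes and 146 and 30.1 CPM in wild type (adjusted p = 0.98 and 0.97). Gata3 was higher in heterozygotes without passing, at 148 ± 33.8 and 103 ± 9.03 CPM (SD, n = 4 each, adjusted p = 0.15). Ntrk2 was as well, at 13.9 and 11.5 CPM (adjusted p = 0.54). The median log2 change of the 12 ganglion neuron markers was -0.40. Abundant markers weigh most in their sum, Nefm and Nefl among them, and the sum without these was not tested. Of the hair cell markers 2 of 12 fell, Otof (from 167 ± 8.79 to 84.2 ± 9.82 CPM) and Lhfpl5, while Pou4f3 was at 111 ± 9.78 and 116 ± 11.5 CPM (SD, n = 4 each, adjusted p = 0.783). Pvalb was higher in heterozygotes without overlap, at 21.8 ± 1.33 and 14.1 ± 2.43 CPM, but did not pass (adjusted p = 0.052). Atoh1 and Calb2 were also higher without passing (60.4 and 47.6 CPM in heterozygotes, 38.3 and 38.1 CPM in wild type). The median log2 change of the 12 hair cell markers was -0.14. The part of these markers in the members' results was not tested.

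Other ion channel families are given for comparison, as counts without a test of the difference. Of 10 tested voltage-gated sodium channel genes 1 fell, Scn3b, from 20.4 ± 1.62 to 3.58 ± 0.239 CPM (SD, n = 4 each, edgeR adjusted p = 2.773e-06; median log2 change of the list -0.38), and of 18 calcium channel genes and 2 HCN channel genes none passed (medians -0.18 and -0.63). In a list of 33 tested partners of potassium channels and genes of potassium transport, none passed and the median was -0.03. An unadjusted p under 0.05 was found for 3 sodium (30%), 4 calcium (22.2%), 1 HCN (50%) and 4 partner genes (12.1%), against 13.3% of all genes. DESeq2 called none in the calcium, HCN and partner lists. In 2 of the 33 partner genes (6.06%, against 7.86% of all genes) the groups did not overlap, 1 lower and 1 higher. The lower gene, Dlg2, was at 4.39 and 7.32 CPM in heterozygotes and wild type (edgeR adjusted p = 0.184). The higher gene, Atp1b3, was at 73.5 and 65.2 CPM (adjusted p = 0.311).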

How the data were processed

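STAR 2.5.2a, DESeq2 and the build GRCm38.p4 are named in the submitters' processing notes. The authors deposited read counts per gene for 8 libraries, not normalized, and a table of normalized counts, a signal of counts divided by a size factor, for 7 libraries without wild-type replicate 4. Multiplied back, its values gave whole reads in 100% of cases (tolerance 0.001) and equalled the counts, so it supplied symbols and an alternative fit, which called 126 genes. The unstranded counts were used, since counting on either strand alone, where fewer reads are ambiguous between genes, gave 53.2% to 53.4% of them. Lines that name no gene held 25.2% to 33.9% of read pairs and were left out. Read pairs came from cDNA amplified by PCR, and the labels name no molecular identifiers.

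Genes with at least 10 reads in 4 or more libraries were compared with edgeR 4.0.16 (R 4.3.3; TMM, quasi-likelihood, Benjamini-Hochberg over all genes, threshold 0.05). Log2 fold changes carry their SE, the change divided by the square root of F. CPM used TMM-scaled libraries, and lengths and coordinates came from GENCODE M21. The fit was tested on simulated counts with 200 changed genes. It recovered 24% of changes of 1.5-fold, 68.5% of 2-fold and 94% of 4-fold, with 2, 1 and 19 false calls. A gene that did not pass may therefore still differ. The library pools are separate samples per the labels, with no more said on their origin, so p-values measure the spread between these libraries. Pairs of libraries of 1 genotype differed by 14.6 to 50.5 times sampling noise (chi-square per degree of freedom). The members and lists were chosen with earlier results of these data known. Genes named are those called, the highest per kilobase in each class, 14 members known from the inner ear, and the 6 with the smallest p that did not pass. Some of these genes are not reported here. Others (Kcna2 to Kcna6, Kcnab1, Kcnab2, Kcnh3, Kcne3, Dlg2, Atp1b3, overlapping genes and markers) were named after their values were seen. Alternatives were DESeq2 1.42.0, other scalings and filters, a robust fit, a replicate block and leaving out each library.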

Additional observations from a re-analysis of the deposited data

Results flagged for a closer look

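In 48 groups of 4 libraries checked for the named members, 4 held a library apart from the other 3 (gap over range above Dixon's 95% critical value), and chance alone gives about 1 in 20. Kcna10 was at 2.17 CPM in heterozygote replicate 4 and 1.24 to 1.37 CPM in the other heterozygotes. Kcnh6 was at 24.7 CPM in wild-type replicate 1 and between 23.4 and 23.5 CPM in the rest of that genotype. Kcnn4 was at 9.22 CPM in heterozygote replicate 2 and 6.14 to 6.55 CPM in the others, and Kcnq1ot1 at 209 CPM in wild-type replicate 1 and 147 to 154 CPM in the others.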

How the results depend on the processing

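With all genes, 196 were called (171 lower, 25 higher), and DESeq2 called 564 (411 lower, 153 higher). Among the members 3 were called by edgeR and 8 by DESeq2, which among others added Kcnh8, Kcnmb2 and Kcnq1ot1 as lower (adjusted p = 0.00453, 0.00711 and 0.0413) and Kcnk1 as higher (0.0062). Of the sodium channel genes 1 was called by edgeR and 2 by DESeq2. Without 1 library at a time the calls ranged from 111 to 166 over all genes and from 1 to 3 among the members; the fits without 1 library had fewer samples. In the authors' genes and 7 libraries 126 genes and 1 member, Kcna10, were called. Same-numbered libraries correlated at -0.03, -0.10, 0.07 and -0.14 in their deviations from the group means. Libraries with different numbers correlated at -0.26 to 0.21. With so few libraries these values do not settle whether the replicate numbers pair the samples. With the replicate block 96 genes and 1 member, Kcna10, were called, and the adjusted p was 0.107 for Kcnh6 and 0.117 for Kcnh7. Of 369 log2 changes of 22 named members under the alternatives, 3 changed sign, none of a called member: Kcnj13 to -0.025 without heterozygote replicate 2 (range without 1 library -0.025 to 0.61), and Kcnj16 to 0.053 and 0.085 without heterozygote replicate 1 and wild-type replicate 2 (range -0.42 to 0.085). Elsewhere the cause of a changed call was not tested. Of the members, 24 of 57 tested did not reach 50 reads in 4 libraries.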

Other observations

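The genes whose promoter windows hold both RE1 parts in order with at most 20 bases between were 13 symbols, of which 9 were matched in the counts and 5 were tested. Of these 5, Kcnh6 was lower and the others did not pass. Scg2, a granule protein gene, was at 18.3 ± 2.70 CPM in heterozygotes and 18.4 ± 5.34 CPM in wild type, and Lhx3, a transcription factor gene of hair cells, at 23.5 ± 6.18 and 23.3 ± 2.82 CPM (edgeR adjusted p = 0.99 and 0.993, n = 4 each, SD). Unc13a, a gene of vesicle priming, was at 1.56 ± 0.430 and 2.63 ± 0.813 CPM (adjusted p = 0.321), and Osbp2 at 0.395 ± 0.192 and 0.463 ± 0.171 CPM (adjusted p = 0.879). This list was drawn up after the Kcnh6 window had been seen.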
